A study of Mus musculus with 8 samples.

Results

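Tmem8, Nxpe5, Cd38, Fgl2, Tle3, Naaa, Cemip2 and Saa3 are 8 of the 53342 genes counted in macrophages of the infarcted mouse heart. They were taken by name, and they had been named because their levels in these libraries were higher with interleukin 21 (IL-21). Their IL-21 values are therefore given as a description, with no test. The word little-studied refers to their place in the response to IL-21, which the files do not measure, and Cd38 and Fgl2 are well known in immune cells as such.

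The libraries came from wild-type C57BL/6 mice aged 8 weeks, whose hearts were taken 3 days after myocardial infarction. Macrophages carrying much or little of the surface antigen Ly6C were sorted apart and kept in culture for 24 hours, with IL-21 at 100 ng/mL or without it. The groups were Ly6Chi macrophages with IL-21, Ly6Chi macrophages without IL-21, Ly6Clo macrophages with IL-21 and Ly6Clo macrophages without IL-21, with 2 libraries in each. The libraries within a group are numbered 1 and 2, and nothing in the labels says whether they came from separate mice, so the spread between them may be technical. The il21r-/- mice named in the study design were not analysed here.

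Activated T cells are the main source of the cytokine IL-21. It binds a receptor made of Il21r and the shared chain Il2rg and signals through JAK kinases, chiefly to STAT3. The 8 genes belong to no single pathway. They encode enzymes at the cell surface or in the lysosome (Tmem8, Cd38, Naaa, Cemip2), proteins made for secretion or for the cell surface (Fgl2, Saa3), a corepressor of transcription (Tle3) and a protein without an established function (Nxpe5).

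Each library was read from the 3′ ends of messenger RNAs and held 224329 to 483593 deposited counts. CPM is the usual scaling of counts by library size, here by the TMM-scaled total of the genes kept, and 5256 genes were kept and tested, all 8 among them. The 7 macrophage markers were all detected, with summed levels of 4958 to 5244 CPM of the deposited totals with IL-21 and 4467 to 5127 CPM without. The markers of Ly6Chi monocytes summed to 125 to 175 CPM in Ly6Clo libraries and 573 to 660 CPM in Ly6Chi libraries. Neutrophil markers summed to 599 to 1181 CPM in Ly6Clo and 1295 to 2154 CPM in Ly6Chi libraries, with Retnlg and Ly6g at 0 in all 8, and were higher in the library numbered 1 of every group. The 6 fibroblast markers summed to 96.6 and 115 CPM in Ly6Clo with IL-21, against 19.4 and 28.9 CPM in Ly6Clo without it. In Ly6Chi they went the other way, at 14.6 and 64.6 CPM with IL-21, against 63.2 and 144 CPM without it. The 4 dendritic cell markers summed to 1.74 to 22.5 CPM with IL-21 and 17.2 to 82.7 CPM without. The 4 cardiomyocyte markers summed to 63.1 and 13.5 CPM in Ly6Clo with IL-21, against 0.464 and 2.07 CPM without, and to 0 and 17.4 CPM in Ly6Chi with IL-21, against 3.83 and 42.1 CPM without. Endothelial markers summed to 87.1 to 303 CPM with IL-21 and 52.5 to 238 CPM without, with Tie1 and Emcn at 0. Markers of T cells and of platelets each summed to at most 11.1 CPM, with Cd3g, Itga2b, Gp9 and Gp1bb at 0. The part of these marker lists in the results below was not tested, and in bulk samples fewer cells of a type and less RNA per cell cannot be told apart.

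The promoters below let a reader see what stands ahead of these genes. RefSeq's promoter table (GRCm38.p6) held 7 of the 8, with Tmem8 under its newer symbol Pgap6 and Cemip2 not matched. The 250 bases before the start are shown 5′ to 3′ on the gene's strand for the pair that held a searched motif (Fgl2, Saa3), for the promoter richest in CpG (Tmem8) and for one that was poor in it (Nxpe5). Capitals mark motif matches.
Fgl2 (chr5:21372423-21372672, plus strand): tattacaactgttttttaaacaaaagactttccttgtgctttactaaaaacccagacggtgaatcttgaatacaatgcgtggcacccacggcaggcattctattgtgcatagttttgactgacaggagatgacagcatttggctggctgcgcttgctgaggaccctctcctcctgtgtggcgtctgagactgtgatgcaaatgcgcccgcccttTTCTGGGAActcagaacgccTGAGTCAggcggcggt
Saa3 (chr7:46715677-46715926, minus strand): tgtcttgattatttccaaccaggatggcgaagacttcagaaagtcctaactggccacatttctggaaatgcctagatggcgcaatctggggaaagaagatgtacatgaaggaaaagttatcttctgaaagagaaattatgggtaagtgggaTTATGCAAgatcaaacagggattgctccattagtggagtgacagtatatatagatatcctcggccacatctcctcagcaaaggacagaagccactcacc
Tmem8 (chr17:26113066-26113315, plus strand): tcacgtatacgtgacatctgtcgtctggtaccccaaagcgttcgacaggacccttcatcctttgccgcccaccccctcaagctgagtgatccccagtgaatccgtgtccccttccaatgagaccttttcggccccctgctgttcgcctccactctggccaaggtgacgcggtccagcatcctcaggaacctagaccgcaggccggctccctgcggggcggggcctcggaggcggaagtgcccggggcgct
Nxpe5 (chr5:138225654-138225903, plus strand): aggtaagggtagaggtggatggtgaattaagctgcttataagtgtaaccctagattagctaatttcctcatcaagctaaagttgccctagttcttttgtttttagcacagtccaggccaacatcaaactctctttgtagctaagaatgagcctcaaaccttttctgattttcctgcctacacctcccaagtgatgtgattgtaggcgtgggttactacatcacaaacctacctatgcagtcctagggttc

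In the Fgl2 promoter the capitals mark TTCTGGGAA at -36 to -28 from the RefSeq start, a match to the STAT motif TTCNNNGAA, and TGAGTCA at -16 to -10, a match to the AP-1 motif TGANTCA. In the Saa3 promoter they mark TTATGCAA at -99 to -92, which matches the C/EBP motif TTGCNNAA on the opposite strand. Each motif was searched on both strands in windows of 300 bases, from 250 before the start to 50 after it. The STAT motif was found in 1 of the 7 promoters and in 8.30% of all 32851 promoters. The AP-1 motif was in 1 of the 7 and in 7.81% of all, and the C/EBP motif was in 1 of the 7 and in 10.8% of all. The same STAT motif with 1 more N in its middle was in 0 of the 7 and in 6.95% of all. The NF-kappaB motif was in 0 of the 7 and in 4.51% of all. The matches are descriptions of letters, and no binding was measured.

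Base composition set the promoters apart from each other. The Tmem8 window held 23 CpG and was 65.3% GC, and the Tle3 window held 21 CpG at 53.7% GC. Fgl2 and Naaa held 12 CpG each. Saa3 held 5, and Nxpe5 and Cd38 held 1 each, while the median of all promoters was 7 CpG and 52.7% GC. GENCODE M21 places the start of Fgl2 31 bases further upstream than RefSeq does, so the last 31 bases shown lie within the GENCODE gene; the same holds for 24 bases of Saa3, 17 of Tmem8 and 6 of Nxpe5, and for all 250 of Cd38, whose sequence is not shown.

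With IL-21 against without it, 7 of the 8 genes had all 4 IL-21 libraries above all 4 libraries without it, Cemip2 being the exception. Of all genes tested, 115 (2.19%) showed that order. The same 7 were higher with IL-21 in each of the 4 pairs of subset and library number, as were 519 genes (9.87%) of all tested. In the edgeR quasi-likelihood fit of all 5256 genes, 9 genes (0.171%) were called at an adjusted p under 0.05 for the IL-21 effect averaged over the subsets, all of them higher, and 3 of the 9 were Tmem8, Cd38 and Fgl2. In Ly6Clo 7 genes (0.133%) were called, the same 3 among them, and in Ly6Chi 1 gene (0.0190%) was called, which was none of the 8. With 1 library left out the averaged count was 5 (without the Ly6Chi library numbered 2 without IL-21) to 15 (without the Ly6Clo IL-21 library numbered 2), and the Ly6Clo count was 0 without the Ly6Clo library numbered 2 without IL-21. DESeq2 called 8 of 5256 genes for the averaged effect, with Tmem8, Cd38 and Nxpe5 among them but not Fgl2. As these contrasts chose the 8 genes, nothing is read from those counts. The median log2 fold change of the 8 was 1.69 averaged over the subsets, 2.01 in Ly6Chi and 1.60 in Ly6Clo, beside −0.01, 0.00 and −0.01 over all genes tested.

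**Figure D1:**
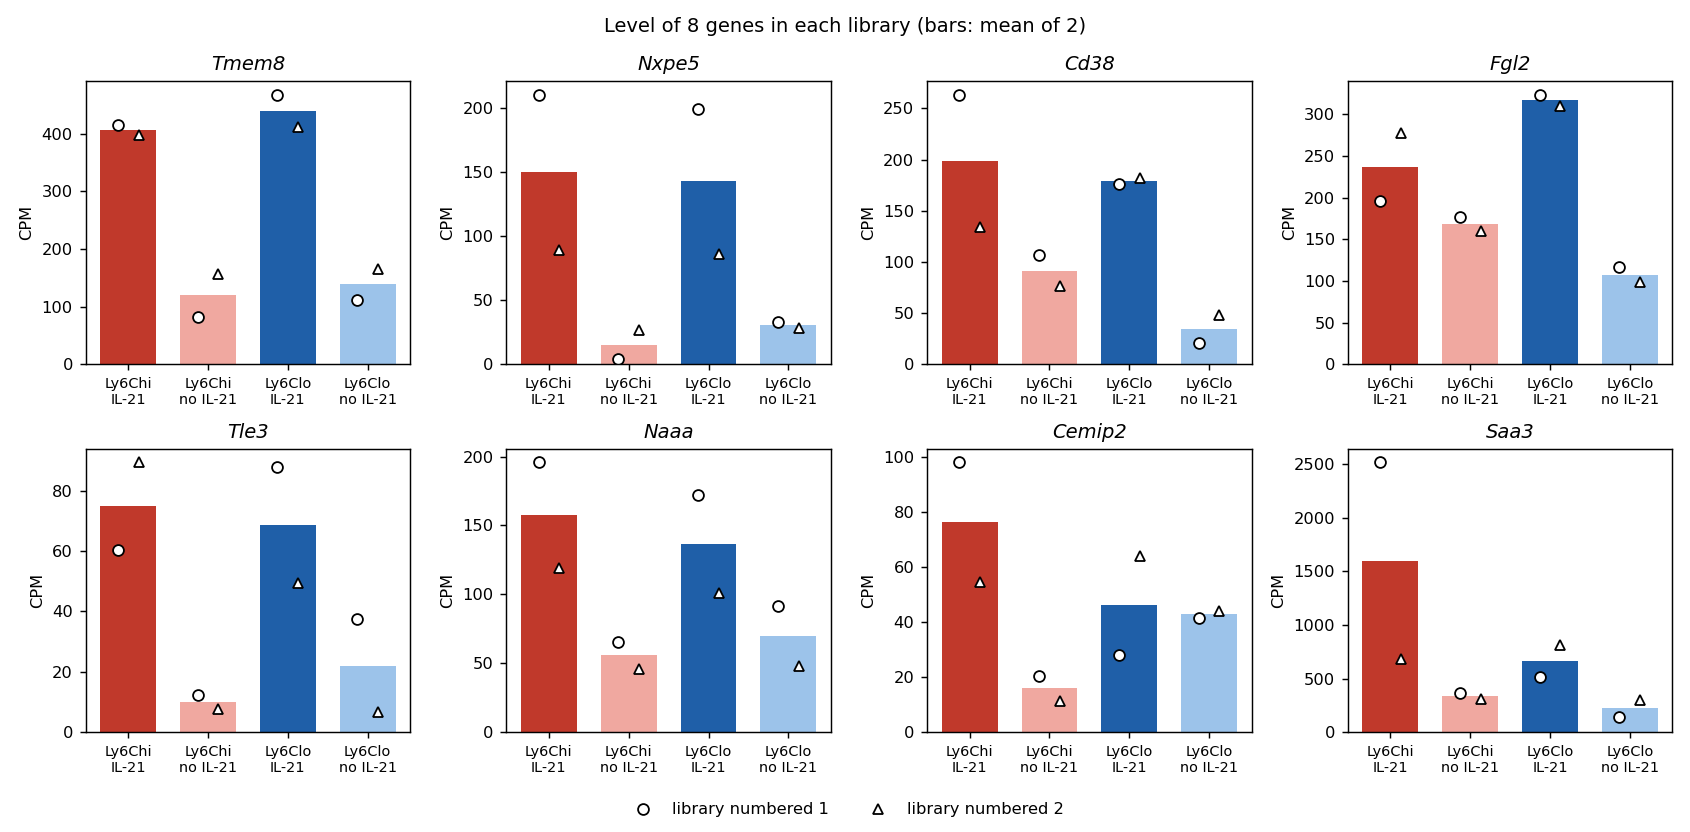
CPM of each gene (vertical axis, from 0) in Ly6Chi with IL-21, Ly6Chi without, Ly6Clo with IL-21 and Ly6Clo without. Bars are means of 2 libraries, circles the libraries numbered 1 and triangles those numbered 2. In Ly6Clo the Cemip2 points with and without IL-21 lie across each other, and Saa3 in Ly6Chi with IL-21 has its points at 2515 and 685 CPM.

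Among the enzymes, Tmem8 had the smallest spread between libraries of a group, an SD of 0.37 on the log2 scale. It is also known as Pgap6, a phospholipase that releases some GPI-anchored proteins from the cell surface, and it lies on the plus strand at chr17:26113299-26123254 (GRCm38, ENSMUSG00000024180). Tmem8 was at 414 and 397 CPM in Ly6Chi with IL-21, against 82.0 and 156 CPM in Ly6Chi without it. In Ly6Clo it was at 468 and 412 CPM with IL-21, against 112 and 165 CPM without. The 4 IL-21 libraries lay close together, and the libraries numbered 1 were the lower ones without IL-21 in both subsets. The ratios for numbers 1 and 2 were 5.05 and 2.54 in Ly6Chi and 4.17 and 2.50 in Ly6Clo. Group means were 406 ± 12.0 against 119 ± 52.6 CPM in Ly6Chi, and 439.6 ± 39.7 against 138 ± 37.1 CPM in Ly6Clo (SD, n = 2 each). On the log2 scale the difference was 1.76 (SE 0.30) in Ly6Chi and 1.63 (SE 0.28) in Ly6Clo. Behind these levels stood 20 to 167 deposited counts per library.

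Cd38 encodes an enzyme on the cell surface that consumes NAD and makes cyclic ADP-ribose. The gene lies on the plus strand at chr5:43868553-43912375 (ENSMUSG00000029084). Cd38 was at 264 and 134 CPM in Ly6Chi with IL-21, against 107 and 76.3 CPM without. In Ly6Clo macrophages Cd38 was at 176 and 182 CPM with IL-21, against 20.8 and 48.3 CPM without. The levels with IL-21 overlapped between the subsets, while the levels without IL-21 were lower in both Ly6Clo libraries than in both Ly6Chi libraries. Fitted log2 fold changes were 2.25 (SE 0.41) in Ly6Clo and 1.15 (SE 0.38) in Ly6Chi. The Ly6Clo value was 3.09 without the library numbered 2 without IL-21, and the Ly6Chi value was 0.56 without the IL-21 library numbered 1. For the Ly6Chi libraries numbered 2 the ratio was 1.76, with an exact 95% counting interval of 0.9497 to 3.31 that includes 1. Such intervals cover counting error only. Counts of Cd38 were 5 to 74.5 per library.

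Naaa encodes a lysosomal hydrolase of N-acylethanolamines such as palmitoylethanolamide, a lipid with anti-inflammatory activity. The gene lies on the minus strand at chr5:92257659-92278170 (ENSMUSG00000029413). It was at 196 and 119 CPM in Ly6Chi with IL-21, against 65.6 and 45.8 CPM without. In Ly6Clo macrophages Naaa was at 172 and 101 CPM with IL-21, against 91.3 and 48.3 CPM without. In each of the 4 groups the library numbered 1 was the higher one, so the ratios within a number were closer together than the levels, at 2.98 and 2.60 in Ly6Chi and 1.88 and 2.09 in Ly6Clo. Its fitted log2 fold change was 1.52 (SE 0.43) in Ly6Chi and 1.01 (SE 0.40) in Ly6Clo. Naaa had 11.5 to 52.5 counts per library.

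Cemip2, also known as Tmem2, encodes a transmembrane protein described in the mouse as a hyaluronidase of the cell surface. The gene lies on the plus strand at chr19:21778342-21858360 (ENSMUSG00000024754). It was at 97.9 and 54.6 CPM in Ly6Chi with IL-21, against 20.5 and 11.4 CPM without. In Ly6Clo macrophages Cemip2 was at 28.0 and 64.1 CPM with IL-21, against 41.5 and 43.9 CPM without. The groups were apart in Ly6Chi and overlapped in Ly6Clo. The ratio in Ly6Clo was 0.674 (counting interval 0.218 to 1.96) for the libraries numbered 1 and 1.46 (0.784 to 2.76) for those numbered 2. For Cemip2 the Ly6Chi log2 fold change was 2.27 (SE 0.56) and the Ly6Clo one 0.18 (SE 0.45), which was −0.60 without the Ly6Clo IL-21 library numbered 2. With 3 to 26.3 counts per library, Cemip2 was one of the thinly counted genes. In the Ly6Chi libraries numbered 2, 11 counts stood against 3, a ratio of 4.77 with an interval of 1.26 to 26.6.

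Of the secreted or surface proteins, Fgl2 (fibroleukin) has a membrane form that can cleave prothrombin on macrophages and a soluble form that binds Fc gamma receptors. It lies on the plus strand at chr5:21372642-21378374 (ENSMUSG00000039899). Fgl2 was at 196 and 278 CPM in Ly6Chi with IL-21, against 176 and 160 CPM without. In Ly6Clo it was at 324 and 311 CPM with IL-21, against 116 and 98.8 CPM without. The 2 Ly6Clo groups were far apart, while the lower Ly6Chi library with IL-21 was close to the higher one without. That pair, both numbered 1, had a ratio of 1.11 with a counting interval of 0.727 to 1.70. Fgl2 had a log2 fold change of 1.57 (SE 0.26) in Ly6Clo and 0.48 (SE 0.26) in Ly6Chi, where Fgl2 ranked 607 of 5256 genes by size. Counts of Fgl2 were 28 to 126 per library.

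Saa3 encodes an acute-phase serum amyloid A protein that mouse macrophages make outside the liver, and the human gene of that name is a pseudogene. It lies on the minus strand at chr7:46711998-46715700 (ENSMUSG00000040026). Saa3 was at 2515 and 685 CPM in Ly6Chi with IL-21, against 365 and 305 CPM without. In Ly6Clo it was at 516 and 816 CPM with IL-21, against 145 and 296 CPM without. The Ly6Chi IL-21 library numbered 1 stood above the other 7 libraries. The log2 fold change was 2.26 (SE 0.67) in Ly6Chi and 1.56 (SE 0.67) in Ly6Clo. Without that 1 library the Ly6Chi value was 1.04, and without the other Ly6Chi IL-21 library it was 2.90. The Ly6Clo value was 2.21 without the library numbered 2 without IL-21. The Ly6Chi IL-21 library numbered 1 had the highest summed neutrophil markers, 2154 CPM, with 1994 CPM in the Ly6Chi library numbered 1 without IL-21, and the part of these cells in the Saa3 level was not tested. Saa3 had 35 to 668 counts per library.

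Tle3 is a corepressor of the Groucho family, which has no DNA binding of its own and is brought to genes by transcription factors. It lies on the plus strand at chr9:61372366-61418497 (ENSMUSG00000032280). Tle3 was at 60.2 and 89.4 CPM in Ly6Chi with IL-21, against 12.3 and 7.63 CPM without. In Ly6Clo it was at 87.9 and 49.3 CPM with IL-21, against 37.4 and 6.58 CPM without. The groups did not overlap, but each rests on few reads, 2 to 22 per library. In 3 of the 4 pairs the library without IL-21 held 3 counts or fewer. Their ratios were 4.90 (counting interval 1.40 to 26.2) and 11.7 (2.81 to 104) in Ly6Chi for numbers 1 and 2, and 7.49 (2.22 to 39.3) in Ly6Clo for number 2. The log2 fold change was 2.84 (SE 0.73) in Ly6Chi and 1.84 (SE 0.60) in Ly6Clo. The Ly6Clo value was 3.25 without the library numbered 1 without IL-21 and 0.82 without the one numbered 2.

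Nxpe5 belongs to the family of neurexophilin and PC-esterase domain proteins, and its function is not established. It lies on the plus strand at chr5:138225898-138253363 (ENSMUSG00000047592). Nxpe5 was at 211 and 89.4 CPM in Ly6Chi with IL-21, against 4.10 and 26.7 CPM without. In Ly6Clo it was at 200 and 86.3 CPM with IL-21, against 33.2 and 28.5 CPM without. Both IL-21 libraries numbered 1 were above both numbered 2. The log2 fold change was 3.25 (SE 0.71) in Ly6Chi and 2.17 (SE 0.60) in Ly6Clo, and averaged over the subsets it was 2.71 (SE 0.46), the second largest of all genes tested. In the Ly6Chi libraries numbered 1, 56 counts stood against 1, a ratio of 51.4 with a counting interval of 8.86 to 2067. That 1 count was deposited as 1.47, and on the unrounded values the ratio was 35.0. The other 3 ratios were 3.35 in Ly6Chi number 2 and 6.02 and 3.02 in Ly6Clo numbers 1 and 2. In Ly6Chi the log2 fold change was 2.52 without the library numbered 1 without IL-21, 5.09 without the one numbered 2 and 2.48 without the IL-21 library numbered 1. The Ly6Clo value was 1.49 without the IL-21 library numbered 1.

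**Figure D2:**
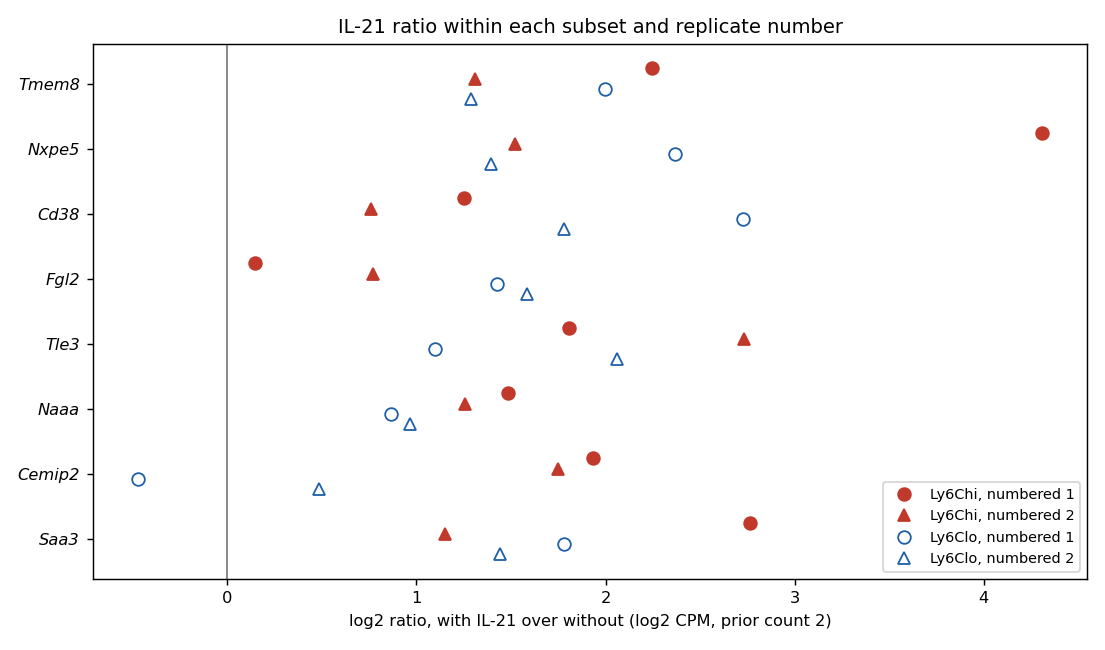
Log2 ratio of CPM with IL-21 over without (horizontal axis, prior count 2) within each subset and library number, 1 row per gene. Filled red symbols are Ly6Chi, open blue ones Ly6Clo, circles number 1 and triangles number 2. The ratio below 0 is that of Cemip2 in Ly6Clo number 1, and the ratio furthest right is that of Nxpe5 in Ly6Chi number 1.

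The library numbers did not order the 8 genes one way. The ratio was larger among libraries numbered 1 than among those numbered 2 for 6 of the 8 genes in Ly6Chi, as for 50.8% of all genes tested, and for 4 of 8 in Ly6Clo, as for 49.7% of all. Tmem8, Nxpe5, Cd38 and Saa3 had the larger ratio with number 1 in both subsets, and Fgl2 and Tle3 with number 2 in both.

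The IL-21 effect in Ly6Clo minus that in Ly6Chi was −2.09 on the log2 scale (SE 0.74) for Cemip2, 1.09 (SE 0.37) for Fgl2 and 1.10 (SE 0.56) for Cd38. For Nxpe5 and Tle3 it was −1.08 (SE 1.0) and −1.0 (SE 1.02), differences no larger than about their errors. For Saa3 it was −0.70 (SE 0.93), for Naaa −0.51 (SE 0.59) and for Tmem8 −0.13 (SE 0.41). With 1 library left out, 3 of these turned sign. Saa3 was at 0.53 without the Ly6Chi IL-21 library numbered 1, and Tle3 at 0.42 without the Ly6Clo library numbered 1 without IL-21. Tmem8 was at 0.24 without the Ly6Chi library numbered 1 without IL-21 and at 0.22 without the Ly6Clo library numbered 2 without IL-21. At the other end, Saa3 reached −1.34, Tle3 −2.01 and Tmem8 −0.66. The other ranges with 1 library left out were −2.91 to −0.31 for Nxpe5, −0.97 to −0.050 for Naaa, −2.87 to −1.58 for Cemip2, 0.85 to 1.35 for Fgl2 and 0.72 to 1.95 for Cd38. These sizes come from the values that chose the genes and are descriptions. Over all 5256 genes, 0 were called for such a difference by edgeR, 92 had an unadjusted p under 0.05, and DESeq2 called 0 with 13 under 0.05.

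**Figure D3:**
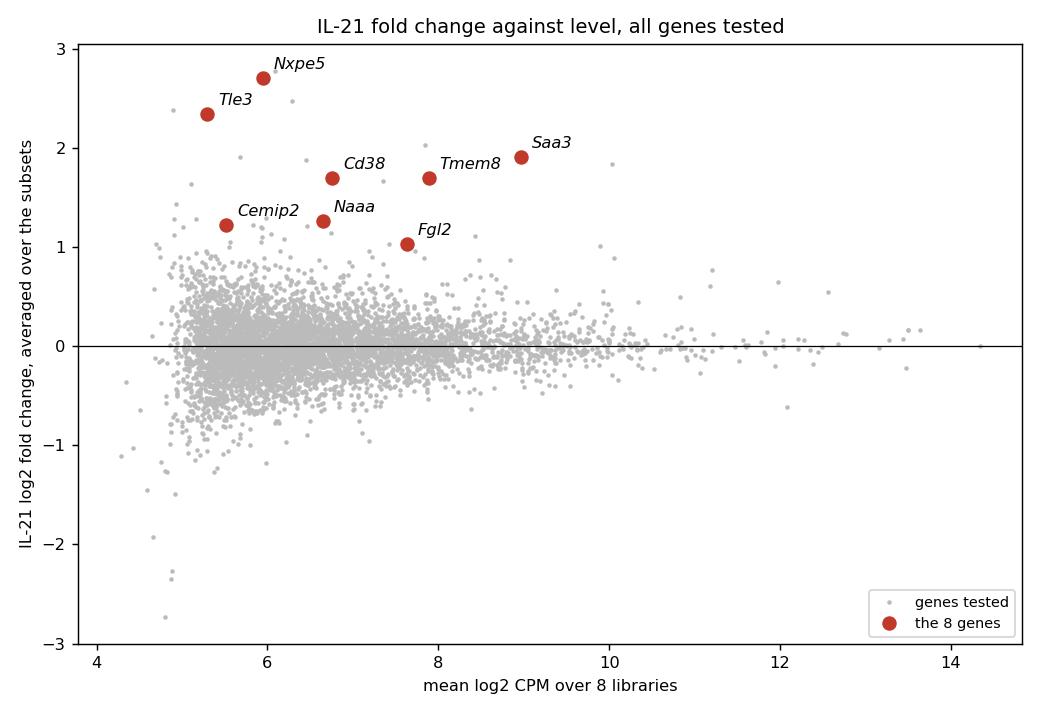
IL-21 log2 fold change averaged over the subsets (vertical axis) against mean log2 CPM over 8 libraries (horizontal axis) for the 5256 genes tested in grey and the 8 genes in red. The 8 lie between 1.03 (Fgl2) and 2.71 (Nxpe5), and Tle3 and Cemip2 lie at the low end of the level axis, where the grey points spread most.

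By size of the averaged log2 fold change the 8 ranked from 2 (Nxpe5) to 35 (Fgl2) of 5256. Tle3 ranked 5 with 2.34 (SE 0.47), Saa3 ranked 7 with 1.91 (SE 0.47), or 1.30 without the Ly6Chi IL-21 library numbered 1, and Cd38 and Tmem8 ranked 11 and 12 with 1.70 (SE 0.28) and 1.69 (SE 0.21). Naaa ranked 19 with 1.26 (SE 0.29) and Cemip2 ranked 21 with 1.23 (SE 0.37). Fgl2 had the smallest SE of the 8, 0.18, with its 1.03. Tle3, the most thinly counted of the 8, was thus near the top by size with one of the largest errors.

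Whether the 8 genes differed between Ly6Clo and Ly6Chi was tested over all 8 libraries, in a contrast that did not choose them. Ly6Clo was set against Ly6Chi, averaged over stimulation. Of all genes, 10 (0.190%) were called by the edgeR quasi-likelihood test, 5 higher (0.0951%) and 5 lower (0.0951%) in Ly6Clo, and 0 of the 8 were among them. At an unadjusted p under 0.05 there was 1 of the 8 by edgeR, Cd38, beside 409 of all 5256 genes. DESeq2 called 0 of the 8, with 0 under 0.05 beside 159 of all 5256 genes. Cd38 was lower in Ly6Clo by a log2 fold change of −0.72 (SE 0.28, 95% interval −1.32 to −0.12), with an edgeR adjusted p of 0.538. Saa3 had −0.91 (SE 0.46, interval −2.04 to 0.22; edgeR adjusted p = 0.686). For the other 6 the intervals ran across 0 as well, from −0.27 to 0.62 for Tmem8, −0.51 to 0.28 for Fgl2, −0.70 to 0.69 for Naaa, −0.42 to 1.17 for Cemip2, −0.74 to 1.44 for Tle3 and −0.72 to 1.49 for Nxpe5. Without the Ly6Chi IL-21 library numbered 1 the value was −0.29 for Saa3 and −0.42 for Cd38, and without the Ly6Chi library numbered 2 without IL-21 it was 1.31 for Nxpe5, against 0.39 with all libraries. The intervals of Tmem8 and Fgl2 were the narrowest, and those of Nxpe5, Tle3 and Saa3 leave room for sizeable differences either way or downward.

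**Figure D4:**
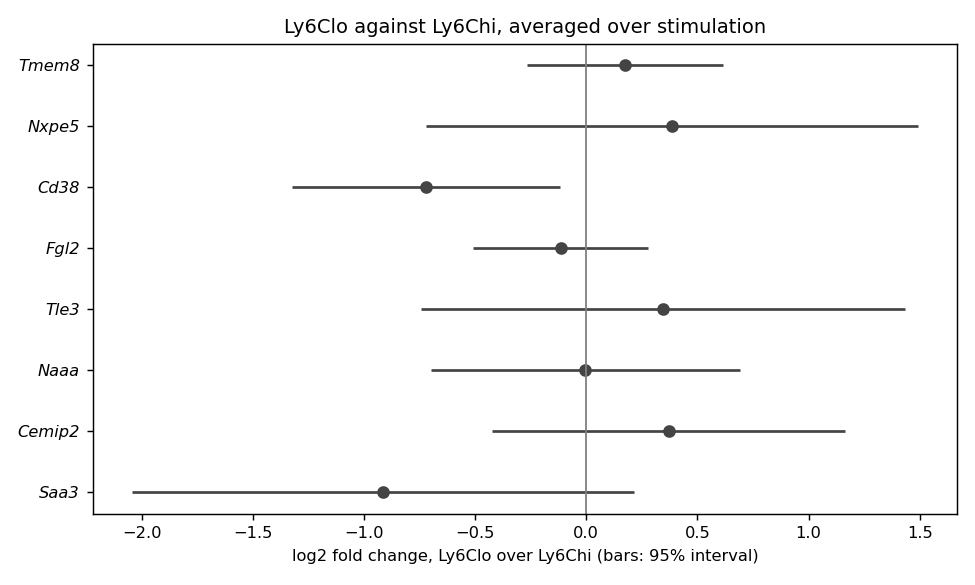
Log2 fold change of Ly6Clo over Ly6Chi averaged over stimulation (horizontal axis) for each gene, with points for the estimate and lines for the 95% interval. The Cd38 interval lies below 0, from −1.32 to −0.12, and the other 7 run across 0.

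Each gene was then set beside genes of its own biochemistry, in 8 lists of 130 gene names, of which 45 were tested. The name Tmem8c had no match in the data, and it was not matched through other names. In the averaged IL-21 contrast 0 of the 45 were called, beside 0.171% of all genes. By edgeR 3 of the 45 had an unadjusted p under 0.05, beside 280 of all 5256 genes. DESeq2 called 0 of the 45, with 2 under 0.05 beside 82 of all 5256 genes. The log2 fold change was above 0 in 29 of the 45, with a median of 0.09, and in 2568 of 5256 of all genes, with a median of −0.01. Likewise 0 of the 45 were called between Ly6Clo and Ly6Chi.

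In the NAD and ADP-ribose list, 8 of 11 tested genes were above 0 and the median was 0.06. Bst1 makes cyclic ADP-ribose as Cd38 does, and it ends 24567 bases before the start of Cd38. Bst1 was at 549.7 and 591 CPM in Ly6Chi with IL-21, against 340.3 and 378 CPM without. In Ly6Clo Bst1 was at 308 and 414 CPM with IL-21, against 162 and 268 CPM without. It was higher in all 4 pairs and did not pass the test, with a log2 fold change of 0.70 (SE 0.19, edgeR adjusted p = 0.307). Parp9, a partner in ADP-ribosylation, had 0.40 (SE 0.24).

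In the list of fibrinogen-related proteins and FGL2 receptors, 3 of 15 genes were tested, all with values above 0. The inhibitory Fc receptor Fcgr2b had a log2 fold change of 0.63 (SE 0.24, edgeR adjusted p = 0.781), and Fcgr3, an activating Fc receptor, had 0.59 (SE 0.45). Hyaluronan genes had a median of −0.16 over 7 tested, 2 of them above 0. Vcan, the hyaluronan-binding proteoglycan versican, had 1.08 (SE 0.36, edgeR adjusted p = 0.700), and the hyaluronan receptor Cd44 had 0.22 (SE 0.15). Serum amyloid A and acute-phase genes had a median of 0.24 over 7 tested, 6 above 0. Haptoglobin (Hp) had 1.91 (SE 1.21) and the formyl peptide receptor Fpr2 had 0.72 (SE 0.53). Hp was highest, at 331 CPM, in the same Ly6Chi IL-21 library in which Saa3 stood out. The Ly6Chi library numbered 1 without IL-21 held 238 CPM of Hp. Those numbered 2 held 49.6 CPM with IL-21 and 34.3 CPM without. In Ly6Clo Hp was at 48.0 and 41.9 CPM with IL-21, against 0 and 6.58 CPM without.

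In the Groucho/TLE list 4 of 6 tested genes were above 0, with a median of 0.02. Runx3, a transcription factor that can recruit TLE proteins, had 0.63 (SE 0.42), and Tle4 had 0.26 (SE 0.30). The N-acylethanolamine and endocannabinoid list had a median of −0.31 over 5 tested, with 0.38 (SE 0.22) for acid ceramidase Asah1 and −0.38 (SE 0.31) for Gde1, a phosphodiesterase that can release N-acylethanolamines. Genes of GPI anchors and their remodelling had a median of 0.12 over 6 tested. Gpaa1 and Pigs, both subunits of the transamidase that attaches the anchor, had 0.41 (SE 0.30) and 0.29 (SE 0.23). None of the 7 names on the NXPE list (Nxpe1-ps, Nxpe2, Nxpe3, Nxpe4, Nxph1, Nxph3 and Nxph4) had enough counts to be tested.

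**Figure D5:**
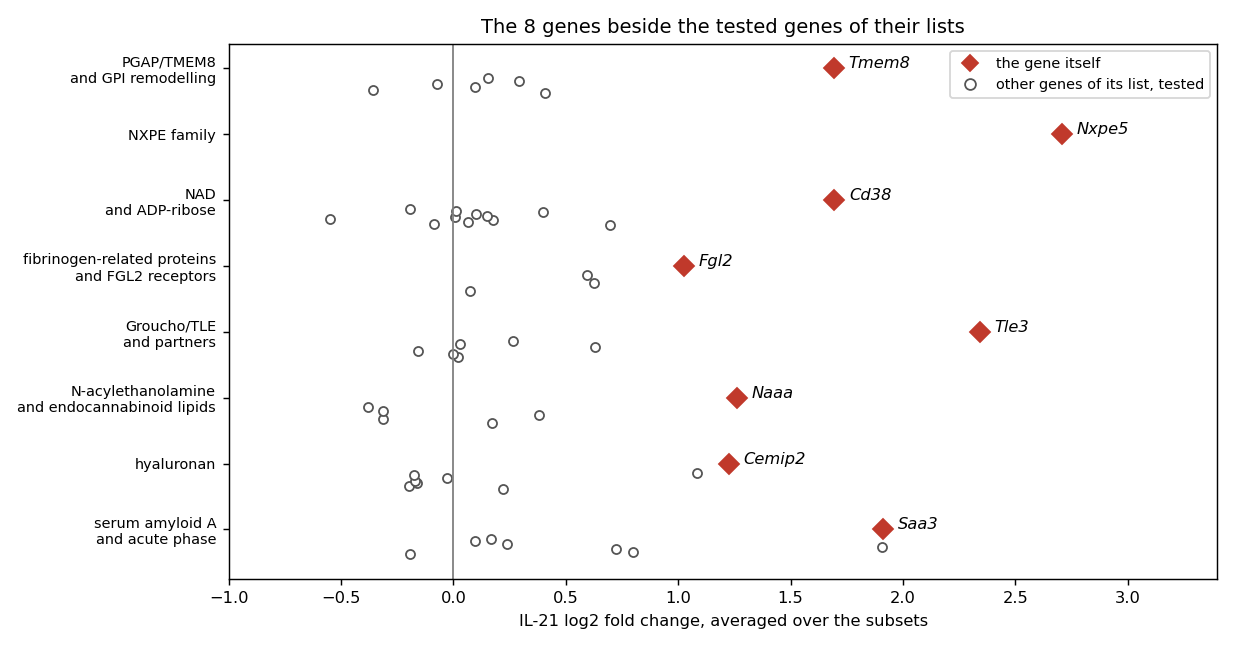
IL-21 log2 fold change averaged over the subsets (horizontal axis) for the 8 genes (red diamonds) and for the tested genes of the list set beside each (open circles). In the serum amyloid A row the circle level with Saa3 at 1.91 is Hp, whose SE was 1.21. In the hyaluronan row the circle at 1.08 is Vcan.

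The nearest patterns were sought among the genes tested with a mean of at least 20 counts, as the 3 with the smallest root-mean-square difference in log2 CPM from each gene over the 8 libraries, after centring. Tmem8 was followed most closely by Arg1, at a difference of 0.20, and then by Il4ra (0.35) and Eps8 (0.48). Nxpe5 was nearest to Tmem8 (0.62), Arg1 (0.65) and Il4ra (0.79). Naaa was nearest to Ccl6 (0.21), Ifitm2 (0.23) and Gda (0.30), and Tle3 to Naaa (0.55), Arg1 (0.60) and Ccl6 (0.62). Fgl2 was nearest to Pf4, Picalm and Sirpb1c, at 0.29 each. Cd38 was nearest to Socs3 (0.45), Tgfbi and Ppbp (0.50 each), and Saa3 to Cd38 (0.50), Vcan (0.53) and Ralgds (0.61). Cemip2 was nearest to Slc39a1 (0.48), Ddi2 (0.49) and Med13l (0.51). The median difference from all genes so compared was 0.80 for Cemip2, and it ran from 0.64 for Fgl2 to 1.40 for Nxpe5. The sizes are thus not comparable from gene to gene. The points share libraries, depth and the IL-21 contrast that chose the genes.

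Since reads began near the 3′ ends of transcripts, the last 500 bases of each protein-coding transcript in GENCODE M21 were searched for stretches of 75 bases, the read length, that another gene's transcript also holds. Stretches on either strand were counted. Fgl2, Tle3, Tmem8, Naaa and Cemip2 had none. Cd38 shared 7 of 426 windows (1.64%) with 5 genes, among them Crot and Agbl2. Sod2, with 2072 counts over all libraries, shared no such window with it but matched it at 97.5% over 79 bases. One of the 5 ends of Nxpe5 shared 23 of 426 windows (5.40%) with the noncoding gene Gm454, which had 0.333 counts over all libraries. One of the 2 ends of Saa3 shared 31 of 426 windows (7.28%) with 59 genes, while its other end shared 0. Near-identical stretches of at least 60 bases and 90% identity reached more genes, 1812 for Saa3, 161 for Naaa, 102 for Cd38 and 4 for Nxpe5. That search kept a limited number of matching transcripts per end, so the counts for Saa3 and Nxpe5 may be too low. One end of Naaa matched Ccdc167, which had 47.0 counts in all, on the same strand at 91.2% over 467 bases. The same end matched Olfr54, which had 0 counts, on the opposite strand. How the authors' counting divided reads of such stretches is not given in the sources used here, so the levels of Saa3, Naaa, Cd38 and Nxpe5 carry that uncertainty.

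Relatives by name of Saa3, Fgl2, Tmem8, Cemip2 and Nxpe5 held few counts beside these genes. Saa1, Saa2 and the pseudogene Saa-ps had 0 counts over all 8 libraries, and Saa4 had 0.368. Fgl1 and Mymk had 0 counts, Tmem8b and Tle2 had 1 each, and Cemip had 1.91. Nxpe2 had 0, Nxpe3 had 3 and Nxpe4 had 15. Of the other Groucho relatives, Tle1 had 27.2 counts, while Tle4 had 226 and Aes 288, more than the 93 of Tle3 itself. Overlapping genes had few counts too: within Cd38, Gm16014 had 6 and the antisense gene Gm16015 had 0, and Ccdc146, which holds Fgl2 on its opposite strand, had 0. AC148016.1, antisense within Cemip2, was not analysed here. Deposited values that were not whole were found in all 8 libraries for Naaa, in 7 for Nxpe5 and Saa3, in 6 for Fgl2, in 5 for Cd38, in 3 for Tmem8 and Cemip2 and in 0 for Tle3. Naaa, Fgl2, Tmem8 and Cemip2 thus held such values although their ends shared no window. Of these, Naaa did have near-identical stretches in other genes. The search for shared windows does not account for such values in these genes, and their source was not tested.

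The 8 genes lay on 5 chromosomes, and 4 of them (Nxpe5, Cd38, Fgl2 and Naaa) on chromosome 5, which held 351 (6.68%) of the genes tested. This is a description of genes chosen by their values.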

How the data were processed

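Messenger RNA was measured in 8 libraries, 4 groups of 2. Libraries were made from 3′ ends with a QuantSeq kit and its module for unique molecular identifiers and single reads of 75 bases were taken, per the labels' protocols. The authors deposited expected counts, estimates that can hold fractions, for each Ensembl gene, called raw per the file headers. Of the values above 0, 53.3 to 59.7% per library were not whole at a tolerance of 0.001. The build mm10 and DESeq2 are named without version, per the submitters' processing notes. Which aligner, counter and annotation were used, and whether identifiers or strand were, is not given in the sources used here. If identifiers were not used, counts include amplified copies.

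Values were rounded to whole numbers, and identifiers were matched to GENCODE M21 (53237 of 53342). edgeR's filterByExpr (minimum count 10, minimum total 15) kept 5256 genes. After TMM scaling, 4 group means were fitted in edgeR 4.0.16 (R 4.3.3, limma 3.58.1) with its robust quasi-likelihood F test. Residual degrees of freedom were 4, and the common biological variation coefficient was 0.201. P-values were adjusted over all genes tested (Benjamini-Hochberg), with calls under 0.05. Alternatives were DESeq2 1.42.0, its size factors, other filters, unrounded values, the library number as a block, and each library left out.

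The 8 genes and the lists around them were chosen with earlier results of these data known. Text names the 8 genes, of each list any called gene and the 2 with the smallest p in the averaged IL-21 contrast, the 3 nearest patterns, and genes sharing 3′ ends. Relatives by name and overlapping genes are named beside them.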

Additional observations from a re-analysis of the deposited data

How the results depend on the processing

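The number of genes called moved with the setting. For the IL-21 effect averaged over the subsets, 9 genes were called, 35 with no filter on low counts and 5 to 15 with 1 library left out. In Ly6Chi 1 was called, 8 with no filter and 0 to 3 with 1 library left out. In Ly6Clo 7 were called, 16 with no filter, 2 with a mean of at least 20 counts, 3 with unrounded values and 0 to 7 with 1 library left out. For the difference between subsets 0 were called, and 1 with no filter. Between Ly6Clo and Ly6Chi 10 were called, 58 with no filter and 3 to 22 with 1 library left out, from 3 without the Ly6Chi IL-21 library numbered 1 to 22 without the Ly6Clo library numbered 2 without IL-21. The cause was not tested.

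With the library number as a block, 60 genes were called for the averaged IL-21 effect, 14 in Ly6Chi, 29 in Ly6Clo, 1 for the difference and 132 between subsets. Of the 45 list genes, 2 were called in the averaged contrast, Bst1 among them. Deviations of the libraries numbered 1 correlated between groups by 0.234 to 0.412. In the fit with the block, 431 of 5256 genes were called for the library number itself. Naaa was among them, at −0.75 on the log2 scale for number 2 against number 1. The main fit leaves such differences in its spread between libraries. The labels do not say that a number marks a shared culture or day, so this is a hint from the data.

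Of 110 alternative values of the averaged IL-21 log2 fold change of the 8 genes, 2 moved by more than the spread between replicates: Nxpe5, 3.64 without the Ly6Chi library numbered 2 without IL-21, and Tle3, 3.05 without the Ly6Clo library numbered 1 without IL-21. Saa3 was at 1.30 without the Ly6Chi IL-21 library numbered 1. As the contrast chose the genes, this shows nothing of their stability. A mean of at least 20 counts leaves out Tle3 and Cemip2.

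In Ly6Clo against Ly6Chi, 0 of 110 alternative values passed. The log2 fold change of Naaa was −0.0041, and 0.042 with the block, 0.030 by DESeq2, 0.0098 with no filter, 0.0076 with a mean of at least 20 counts, 0.015 unrounded and −0.22 to 0.22 with 1 library left out. With 1 library left out it was −0.0071 to 0.44 for Tmem8, −0.23 to 0.0090 for Fgl2, −0.35 to 0.85 for Tle3, −0.027 to 0.63 for Cemip2, 0.025 to 1.31 for Nxpe5, −1.24 to −0.29 for Saa3 and −1.14 to −0.42 for Cd38. Scaling CPM by deposited totals changed no group mean by more than 10.4%. The single level that changed most was that of Nxpe5 at 4.10 CPM, which was 5.63 CPM on the unrounded value and deposited total. Levels of Tle3, Cemip2 and Nxpe5 rest on few counts, and groups of 2 limit every comparison.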
